A study of Mus musculus with 12 samples.

Results

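The transcriptome described here is that of the prostate of WT mice, the 3 libraries of 12 whose genotyping label is WT, with all 41042 genes of the deposited tables. The WT mice were littermate controls of the C57BL/6 strain at 15 months of age, and each library was made from total RNA of the removed, flash-frozen prostate of a mouse. The remaining groups, with 3 mice each of the same strain and age, were Pb-ERG (a *TMPRSS2-ERG* transgene driven by the probasin promoter), Trp53pc-/- (floxed *Trp53* deleted by a probasin-driven Cre, Pb-Cre4) and Pb-ERG, Trp53pc-/- (both alleles, called double mutant below). Both the transgene and the Cre act in prostatic epithelial cells that use the probasin promoter, and whether the WT mice carried an allele of the cross is not given in the sources used here. Which lobes went into each sample is not given either.

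The mouse prostate is made of paired anterior, dorsal, lateral and ventral lobes, each a set of ducts lined by tall luminal secretory cells above a thin layer of basal cells and wrapped in smooth muscle. Luminal cells depend on androgen, and they export large amounts of a few proteins into the seminal fluid. Each lobe makes its own set: spermine-binding protein in the ventral lobe, probasin in the dorsal and lateral lobes, and renin and a transglutaminase in the anterior lobe, which is also called the coagulating gland because that enzyme cross-links semen proteins from the neighbouring seminal vesicle.

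The WT libraries held 26120360, 20591189 and 26838874 fragments in WT 1, WT 2 and WT 3, of which 96.2% to 97.0% fell on listed genes. Levels are given as FPKM (fragments per kilobase of exon, scaled to library size), which can be compared between genes, and shares are the percent of fragments on listed genes, in which a long transcript weighs more than a short one of the same FPKM. At least 1 FPKM was reached by 12015 genes in all 3 mice and by a further 1621 in some of them, and 18026 genes had no fragment in any WT library. Intervals between mice are SDs with n = 3, and in bulk tissue fewer cells of a type and less RNA per cell cannot be told apart. The double mutant library 3 stands apart in the series, with 0.653% of its fragments on the 27 prostate secretory genes listed here against 4.87% to 32.6% in the other 11 libraries, so results that rest on it are given with and without it.

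Secretory products led the WT profile. The spermine-binding protein gene *Sbp* had the highest mean FPKM, with 10960.3 FPKM in WT 1, 52649 in WT 2 and 33645.5 in WT 3 (32418 ± 20871), on chromosome 17 from 23941672 to 23945607 (plus strand, GRCm38). *Spink1*, a Kazal-type inhibitor of trypsin-like proteases in seminal fluid, followed with 10787, 34335 and 26559.8 FPKM. *Tgm4*, the prostate transglutaminase, had 25325, 19100.2 and 21316 FPKM (21914 ± 3155). Its values were the closest of these 3 genes between mice, whereas *Sbp* and *Spink1* were both lowest in WT 1 and highest in WT 2. Probasin (*Pbsn*, an androgen-regulated lipocalin) had 16832, 20035 and 9736.5 FPKM. The uncharacterised gene *9530053A07Rik* had 14623, 10414 and 14046 FPKM, and the beta-defensin gene *Defb50* had 11953, 11036.5 and 8836 FPKM. Of the 25 genes with the highest mean FPKM, 8 belonged to the secretory list, 3 to the seminal vesicle list, 3 were encoded in mitochondrial DNA and 3 were ribosomal protein genes. In all 3 mice 18 genes were among that mouse's own 25 highest.

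**Figure D1:**
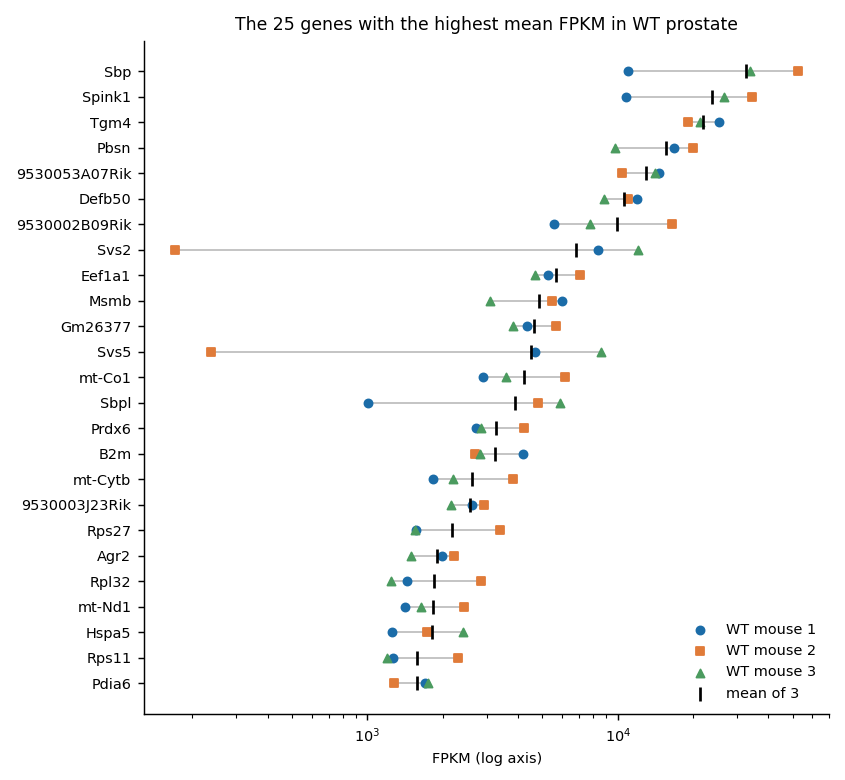
FPKM (log axis) of the 25 genes with the highest mean in WT prostate, with a point for each mouse, a black tick for the mean of 3 and a grey line over the range. The ratio of the highest to the lowest mouse runs from 1.33 for *Tgm4* to 70.2 for *Svs2*, and *Svs2* and *Svs5* lie far lower in WT 2 (171 and 237 FPKM) than in the other 2 mice.

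Of the 25 genes, 15 have a promoter window in the RefSeq table of GRCm38.p6 (250 bases before to 50 after the annotated start). The windows of the 4 transcripts of highest FPKM with a single such window are shown, because they surround the annotated starts of genes that dominate the profile. Probasin promoter sequence also drives the transgene and the Cre of the other groups. The counted *Pbsn* gene reaches to 77853623 on the X chromosome, past the annotated start used for its window. The letters marked in the *Pbsn* window therefore lie within the gene as counted. Capitals mark TATAAA, the letters of a TATA box, and AGAACA or its reverse complement TGTTCT, the letters of a steroid hormone response half-site. Both motifs were searched on both strands, and they do not overlap in these windows.
*Tgm4*, chr9:123034491-123034790, plus strand: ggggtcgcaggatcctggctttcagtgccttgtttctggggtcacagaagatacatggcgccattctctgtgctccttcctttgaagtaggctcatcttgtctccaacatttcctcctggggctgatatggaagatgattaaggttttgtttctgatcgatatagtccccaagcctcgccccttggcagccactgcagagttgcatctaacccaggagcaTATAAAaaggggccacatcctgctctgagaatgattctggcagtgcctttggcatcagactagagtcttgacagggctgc
*Pbsn*, chrX:77853451-77853750, minus strand: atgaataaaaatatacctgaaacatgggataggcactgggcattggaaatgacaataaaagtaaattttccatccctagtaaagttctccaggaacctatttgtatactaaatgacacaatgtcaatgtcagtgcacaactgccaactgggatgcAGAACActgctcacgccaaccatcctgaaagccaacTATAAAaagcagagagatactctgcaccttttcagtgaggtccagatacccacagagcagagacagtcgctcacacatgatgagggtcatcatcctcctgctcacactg
*9530053A07Rik*, chr7:28129216-28129515, plus strand: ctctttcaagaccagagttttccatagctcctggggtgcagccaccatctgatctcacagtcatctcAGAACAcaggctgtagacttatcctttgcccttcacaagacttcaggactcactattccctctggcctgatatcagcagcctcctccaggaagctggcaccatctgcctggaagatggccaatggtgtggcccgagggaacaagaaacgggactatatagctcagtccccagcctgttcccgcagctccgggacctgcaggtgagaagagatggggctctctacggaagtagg
*9530002B09Rik*, chr4:122689009-122689308, plus strand: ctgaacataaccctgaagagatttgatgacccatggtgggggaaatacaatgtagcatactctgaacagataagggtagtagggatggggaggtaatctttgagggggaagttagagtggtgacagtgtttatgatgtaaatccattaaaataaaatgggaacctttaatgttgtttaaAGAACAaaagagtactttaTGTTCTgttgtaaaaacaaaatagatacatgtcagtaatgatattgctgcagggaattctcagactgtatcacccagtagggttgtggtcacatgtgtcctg

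TATAAA began 30 bases before the annotated start of *Tgm4* and 59 bases before that of *Pbsn*. AGAACA began 95 bases before the start of *Pbsn* and 183 before that of *9530053A07Rik*, and *9530002B09Rik* held AGAACA at 71 and TGTTCT at 52 bases before its start. A half-site was present in 18.97% of all 32851 windows and in 8 of the 26 windows of the secretory list (21 of 27 genes matched), and TATAAA on either strand in 13.62% of all windows and in 4 of those 26. In the 17 windows of the 25 highest genes, 7 held a half-site and 6 held TATAAA. A match of TATAAA starting 35 to 25 bases before the start was in 3 of these 17 windows, in 3 of the 26 and in 1.753% of all windows. The full inverted repeat AGAACA, any 3 bases and TGTTCT was in 0.009132% of all windows and in none of the 26 or the 17. These are matches of letters and not binding sites.

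Ranking by share of fragments gave a different order, because the transcripts differ in length. *9530053A07Rik* (exon length 7928 bases, chromosome 7, 28129466 to 28164811, plus strand) took 12.03%, 8.58% and 11.5% of the fragments of the 3 mice (10.7 ± 1.86%), more than any other gene. *Tgm4* took 7.28%, 5.50% and 6.09%, and *Sbp* took 1.33%, 6.38% and 4.04%. *Sbp* was thus a small part of the WT 1 library and a large part of WT 2. *Spink1*, with an exon length of 422 bases, took 1.05 ± 0.526% despite the second highest FPKM. The 10 genes with the largest mean shares held 27.0%, 28.7% and 28.9% of fragments (28.2 ± 1.04%), and 7 of them were among the 10 largest in every mouse. The 100 largest held 42.6 ± 1.35% and the 1000 largest 65.5 ± 0.995%. On the mean share 250 genes held 50% of the fragments, and the count was 288, 221 and 220 in the separate mice. The summed share of these 10 genes was nearly equal in the 3 mice, although members such as *Sbp* and *Svs2* differed between them. By the count of genes holding 50%, the fragments of WT 1 were less concentrated than those of the other mice.

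By class, the 27 genes of the prostate secretory list held 13.1%, 18.7% and 14.9% of fragments (15.6 ± 2.87%), and *9530053A07Rik*, which is not on the list, would add its own 10.7%. Genes for protein folding and export in the endoplasmic reticulum, the machinery that prepares secreted proteins, held 3.01 ± 0.475%. *Hspa5*, the main chaperone of that compartment, had 1258, 1738 and 2420 FPKM, and the disulfide isomerase gene *Pdia6* had 1695, 1283 and 1741.5 FPKM. All 32 genes of this list exceeded 1 FPKM in every mouse, with a median of their means of 194 FPKM. Ribosomal protein genes held 2.23%, 3.65% and 1.98%, and mitochondrially encoded genes 1.15%, 2.37% and 1.40%. Both classes were highest in WT 2. Translation factors held 2.25 ± 0.276%, of which *Eef1a1*, the elongation factor that brings aminoacyl-tRNA to the ribosome, made up 46.8%. The short gene *Gm26377* (108 bases) lies inside *Eef1a1* on the same strand, so its 4615 ± 958 FPKM cannot be told apart from *Eef1a1* reads. Redox enzymes held 1.17 ± 0.259%, and 72.0% of that was *Prdx6*, a peroxiredoxin that reduces lipid peroxides, with 2722, 4220 and 2835 FPKM. Solute carriers and ion pumps held 1.61 ± 0.112%, spread over 228 genes with a mean of at least 1 FPKM.

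**Figure D2:**
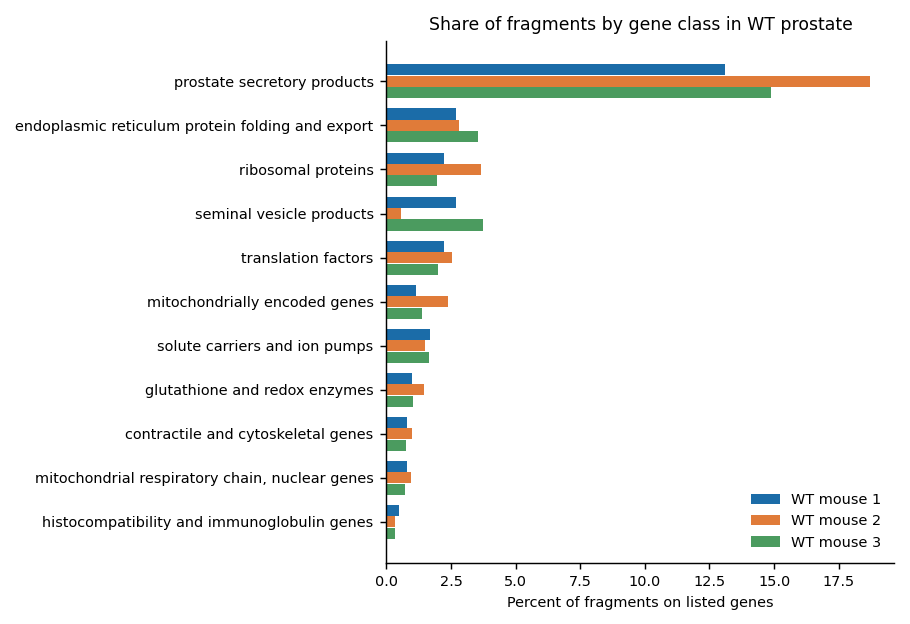
Percent of fragments on listed genes (bars from 0) taken by the 11 largest gene classes in the 3 WT mice. The prostate secretory products take 13.1% to 18.7% and lead in every mouse, and the seminal vesicle products range from 0.579% in WT 2 to 3.72% in WT 3 (0.0639% and 3.34% without *9530003J23Rik*).

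The lobe products differed in how much they varied. The ventral lobe genes *Sbp*, *Spink1* and *Sbpl* were all lowest in WT 1, and their summed level was 22750.4, 91771 and 66108 FPKM. *Sbpl*, a relative of *Sbp* in the same cluster on chromosome 17, had 1003, 4787 and 5903 FPKM. The dorsal and lateral lobe genes were both lowest in WT 3, where *Pbsn* had 9736.5 FPKM and *Msmb* (beta-microseminoprotein) had 3094.5 FPKM, against 5971 and 5445 FPKM of *Msmb* in the other mice. Of the anterior lobe genes, *Tgm4* differed 1.33-fold between the extremes, whereas renin (*Ren1*), the protease that cleaves angiotensinogen, had 34.6, 83.4 and 384 FPKM. The anterior products thus did not move together between mice. The share of each lobe in the sampled tissue was not measured, and its part in these differences was not tested.

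Among the other secretory products, *9530002B09Rik* had 5561.5, 16546 and 7726 FPKM and *Glb1l3*, a beta-galactosidase-like gene, had 827, 799 and 802 FPKM. *Glb1l3* was the steadiest abundant gene of the list. The complement protease genes *C1rb* and *C1s2* had 938 ± 221 and 727 ± 144 FPKM. *Pnliprp1*, a pancreatic lipase-related protein, had 513, 274 and 295 FPKM, and *Azgp1*, zinc-alpha-2-glycoprotein, had 436.5, 371 and 96.9 FPKM. *Rnase1*, a secreted ribonuclease, was highest in WT 2, with 155, 797.5 and 95.4 FPKM. Clusterin (*Clu*), an extracellular chaperone, was lowest in the same mouse, with 258, 47.9 and 225 FPKM. Markers used for the human prostate were low: *Folh1*, the gene of prostate-specific membrane antigen, had 0.0860, 0.0909 and 0.0837 FPKM, and *Acpp*, prostatic acid phosphatase, had 3.21, 1.86 and 3.48 FPKM. Of the 27 genes, 26 reached at least 1 FPKM in all 3 mice, and *Folh1* did not.

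Markers of prostate epithelium were present in every library. All 9 luminal genes exceeded 1 FPKM in every mouse and none varied 4-fold, with a summed level of 2030, 1768 and 2000.4 FPKM. The keratin genes *Krt8* and *Krt18*, which form the filaments of luminal cells, had 69.1 ± 11.4 and 324 ± 25.5 FPKM. *Hoxb13*, the posterior homeobox gene of the prostate, had 88.3, 88.8 and 96.5 FPKM, and *Foxa1*, a pioneer factor that opens chromatin, had 49.5, 48.6 and 57.5 FPKM. All 13 prostate transcription factors and all 14 androgen response genes exceeded 1 FPKM in every mouse, and none of either list varied 4-fold. *Fkbp5*, a cochaperone of steroid receptors induced by androgen, had 59.2, 48.5 and 77.3 FPKM, and *Tmprss2*, a transmembrane serine protease gene, had 164, 94.6 and 101 FPKM.

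Basal and proximal luminal markers were lower. *Krt5* and *Krt15*, keratins of basal cells, had 36.2, 14.1 and 17.6 FPKM and 85.5, 36.7 and 45.6 FPKM, and the basal transcription factor gene *Trp63* had 3.23, 2.703 and 3.91 FPKM. The basal list summed to 133 FPKM in WT 1, above 57.0 and 72.0 in the other mice, and *Dsg3* had no fragment. Of the proximal luminal genes, which mark cells near the urethra, *Ly6a* (Sca-1) had 78.3, 71.0 and 69.7 FPKM, while *Krt7* had 2.10, 1.54 and 2.72 FPKM. *Ly6a* is also a marker of endothelial and stromal cells. Neuroendocrine markers were near the floor: *Chga* had 0.854, 0.800 and 1.86 FPKM.

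The stroma was read mainly through smooth muscle. *Acta2* and *Tagln*, contractile genes of smooth muscle, had 460, 579 and 467.5 FPKM and 396, 746 and 419 FPKM, and 6 of the 7 smooth muscle genes were highest in WT 2. Fibroblast genes were led by decorin (*Dcn*), with 210.5, 377 and 238 FPKM, while the collagen gene *Col1a1* had 4.62, 4.74 and 6.38 FPKM. All 6 endothelial and all 6 macrophage genes were highest in WT 2, as were 31.3% of all genes with a mean of at least 1 FPKM. In contrast, 8 of the 9 luminal, 5 of the 6 proximal luminal and all 5 neuron genes were lowest in WT 2. The share of all genes lowest in WT 2 was not computed, so these counts have no background beside them. In WT 2 *Pecam1* had 9.63 FPKM against 5.30 and 6.95, and *Lyz2*, lysozyme of myeloid cells, had 89.9 FPKM against 35.4 and 33.2. T cell markers reached a summed level of 2.16, 4.38 and 2.84 FPKM, and neutrophil markers 1.06, 1.77 and 2.48 FPKM. Proliferation genes were low in all 3 mice: *Mki67* had 0.429, 0.188 and 0.340 FPKM and *Top2a* had 2.08, 1.89 and 2.36 FPKM.

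**Figure D3:**
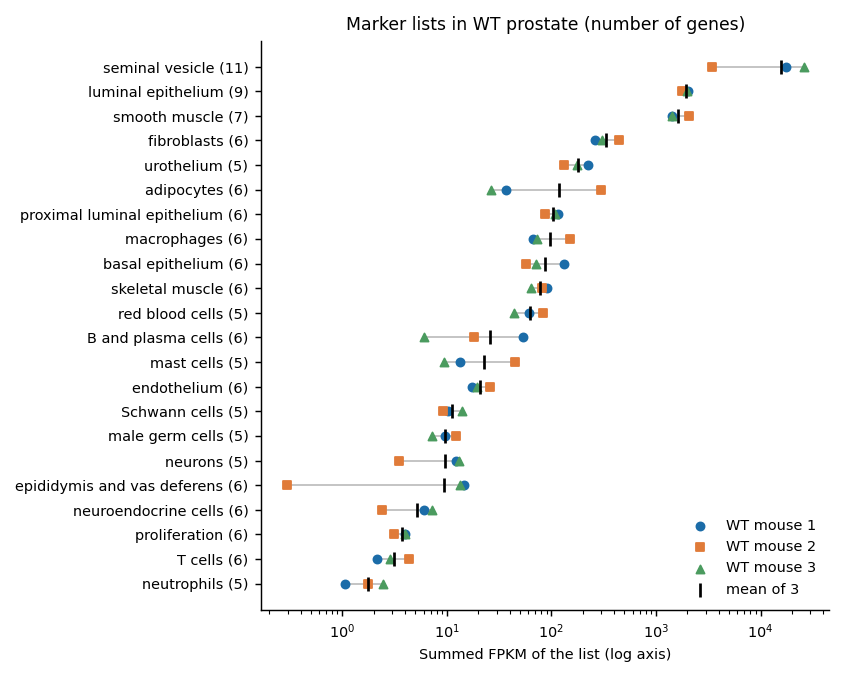
Summed FPKM (log axis) of each marker list in the 3 WT mice, with the number of genes in each list in brackets, a black tick for the mean of 3 and a grey line over the range. Luminal epithelium (1768 to 2030 FPKM) and smooth muscle (1415 to 2075 FPKM) are close between mice, whereas adipocytes (26.4 to 295 FPKM) and the epididymis and vas deferens list (0.296 to 14.7 FPKM) are not.

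Adipocyte genes and most mast cell genes separated WT 2 from the other mice. All 6 adipocyte genes were highest in WT 2, and *Fabp4*, a fatty acid carrier of adipocytes, had 27.4, 189 and 19.5 FPKM. Adiponectin (*Adipoq*) had 2.31, 27.1 and 1.99 FPKM. The mast cell proteases *Cpa3*, *Mcpt4*, *Tpsb2* and *Cma1* were highest in the same mouse, with 15.0 FPKM of *Mcpt4* against 4.68 and 2.48, while *Kit*, the stem cell factor receptor on the same list, had 0.809, 0.906 and 0.986 FPKM, highest in WT 3. In contrast, *Ighm*, the heavy chain of immunoglobulin M, was highest in WT 1, with 42.6, 12.4 and 4.24 FPKM, and *Jchain*, which joins secreted immunoglobulins, followed the same order with 10.7, 5.30 and 1.82 FPKM. The B cell genes *Ms4a1* and *Cd79a* were under 1 FPKM in each mouse.

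The seminal vesicle list was abundant but uneven. *Svs2*, which encodes a main protein of the copulatory plug, had 8321 FPKM in WT 1, 171 in WT 2 and 12002.5 in WT 3, with 6985 fragments in the lowest library. *Svs5* had 4694, 237 and 8572 FPKM and *Pate4* had 1644, 95.3 and 2912 FPKM. *Svs4*, another seminal vesicle secretory protein, had only 206, 26.8 and 122.8 FPKM, and *Svs3a*, *Svs3b* and *Svs1* had at most 2.0 FPKM. *Svs2*, *Svs4*, *Svs5* and *Pate4* were all lowest in WT 2, whereas *9530003J23Rik*, also on this list, was highest there, with 2616, 2936 and 2161 FPKM. Without *9530003J23Rik* the list held 2.22%, 0.0639% and 3.34% of the fragments of the 3 mice. The ratio of *Svs2* to *Svs4* was 40.4, 6.38 and 97.7 in the WT mice and 0.00261 to 1.18 in the 9 other libraries. The ratios of *Svs2* to *Svs5* (0.720 to 1.77 in WT, 0.00801 to 1.03 elsewhere) and to *Pate4* (1.79 to 5.06 in WT, 0.240 to 2.78 elsewhere) overlapped between WT and the other libraries. In the epididymis and vas deferens list, *Crisp1* had 14.03, 0.0686 and 8.66 FPKM, while *Lcn5* and *Lcn8* had no fragment. Of the urothelial genes, *Upk1a* and *Upk1b* had 91.6 ± 18.1 and 84.7 ± 33.98 FPKM, but *Upk3a* and *Krt20* had at most 0.132 FPKM. Of the male germ cell genes, *Acrv1* alone passed 1 FPKM (9.70, 11.7 and 7.28), while *Prm2* and *Tnp1* had no fragment. The part of carried-over neighbouring tissue in these levels was not tested.

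Zinc, citrate and polyamines are stored or secreted by the prostate. The metallothionein genes *Mt1* and *Mt2*, which bind zinc, had 1004, 1289 and 1292 FPKM and 840, 956 and 994 FPKM. *Slc30a2*, a zinc exporter, had 58.1, 85.4 and 84.2 FPKM, and the zinc importer *Slc39a1* had 27.0, 25.4 and 24.8 FPKM. Citrate synthase (*Cs*), which makes citrate, had 60.8 ± 5.35 FPKM. Ornithine decarboxylase (*Odc1*), the entry enzyme of polyamine synthesis, had 32.2, 37.4 and 40.8 FPKM, and spermidine synthase (*Srm*) had 56.0, 49.5 and 54.4 FPKM. Spermine synthase (*Sms*) was lower, with 4.72, 4.83 and 4.09 FPKM, and spermine oxidase (*Smox*) had 3.35, 2.69 and 2.84 FPKM. Of the 12 polyamine genes, 10 exceeded 1 FPKM in every mouse, and none varied 4-fold.

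Most genes differed little between WT mice. Among the 12813 genes with a mean of at least 1 FPKM, the median ratio of the highest to the lowest mouse was 1.31, 1360 genes (10.6%) spanned at least 2-fold, 319 (2.49%) at least 4-fold and 138 at least 10-fold. The root mean square log2 difference between pairs of mice was 0.406 to 0.484, against 0.120 to 0.128 for counting error alone. Of the 319 genes, 75 were set apart by being high in WT 2, 55 in WT 1 and 30 in WT 3, and 57, 56 and 46 by being low in WT 1, WT 2 and WT 3. A predicted-gene, pseudogene, clone or Rik name was carried by 81 of the 319. Genes high in WT 2 included the pseudogene *Rps18-ps1* (28.7-fold) and the mitochondrial *mt-Co3* (12.05-fold) and *mt-Atp6* (5.05-fold), although *mt-Co1* differed only 2.13-fold. The part of read assignment in these differences was not tested. Among listed genes, all 5 adipocyte genes and all 4 mast cell genes with a mean of at least 1 FPKM, and 6 of 7 in the seminal vesicle list, spanned 4-fold. None of the luminal, basal, smooth muscle, fibroblast, endothelial, macrophage, endoplasmic reticulum, zinc and citrate genes with such a mean did. The 319 genes also varied more in the other groups, with a median SD of log2(FPKM + 1) of 0.781, 0.640 and 0.790 in Pb-ERG, Trp53pc-/- and double mutant mice, against 0.256, 0.241 and 0.281 over all 12813 genes.

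**Figure D4:**
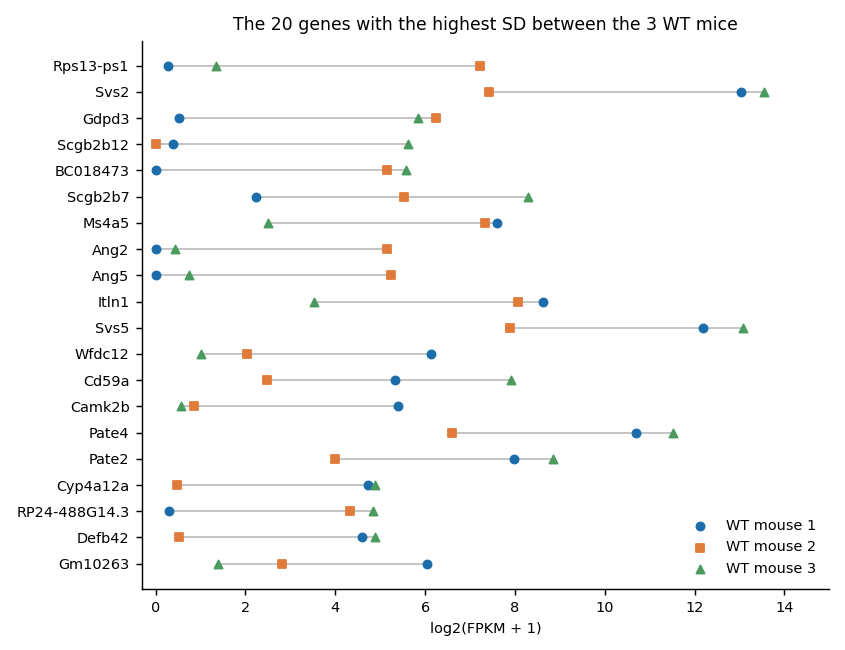
log2(FPKM + 1) of the 20 genes with the highest SD between the 3 WT mice, among those with a mean of at least 1 FPKM, with a point for each mouse and a grey line over the range. Some genes are far higher in 1 mouse (*Rps13-ps1* in WT 2, 149 FPKM) and some far lower in 1 mouse (*Svs2* in WT 2, 171 FPKM).

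The 20 genes with the highest SD on the log2(FPKM + 1) scale were chosen by these values, which are therefore a description. The ribosomal protein pseudogene *Rps13-ps1* led, with 0.213, 149 and 1.52 FPKM, and at most 0.367 FPKM in the 9 other libraries. As a near-identical copy of a ribosomal protein gene it may share reads with its parent, so its value is uncertain. *Gdpd3*, a glycerophosphodiester phosphodiesterase gene, had 0.431, 75.2 and 56.3 FPKM. *BC018473* had no fragment in WT 1 and 34.5 and 46.3 FPKM in the other mice, and of the 9 other libraries Pb-ERG 1 alone, with 27.5 FPKM, exceeded 0.0507 FPKM. It was thus nearly off or clearly on in each of the 12 libraries. The secretoglobin genes *Scgb2b12* and *Scgb2b7* and the gene *RP24-488G14.3* lie between 31401034 and 32327245 on chromosome 7 and were all highest in WT 3, with 48.3, 314 and 27.8 FPKM. The angiogenin genes *Ang2* and *Ang5*, secreted ribonucleases on chromosome 14, were nearly confined to WT 2 among these mice, with 34.6 and 37.0 FPKM against at most 0.684. Reads of such related genes can be split uncertainly.

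*Itln1*, a lectin that binds microbial sugars, had 391, 268 and 10.5 FPKM, and *Ms4a5*, a membrane-spanning protein gene, had 192, 160 and 4.63 FPKM, so both were low in WT 3. *Cd59a*, an inhibitor of the complement membrane attack complex, had 39.4, 4.59 and 240.5 FPKM, highest in WT 3. *Camk2b*, a calmodulin-dependent kinase gene, and *Wfdc12*, a whey acidic protein-type inhibitor gene, were high in WT 1 alone, with 41.1 and 69.6 FPKM. *Svs2*, *Svs5* and *Wfdc12* lie between 164189231 and 164334396 on chromosome 2, and *Pate2* and *Pate4* overlap on chromosome 9 on opposite strands. No strand setting is given for the counting, so reads of *Pate2* and *Pate4* cannot be told apart. *Cyp4a12a*, a fatty acid hydroxylase gene, and the defensin gene *Defb42* followed *Svs2*, with 25.3, 0.381 and 28.4 FPKM and 23.3, 0.429 and 28.5 FPKM. The remaining predicted gene, *Gm10263*, had 64.8, 5.99 and 1.61 FPKM. *Gdpd3*, *Ms4a5*, *Wfdc12* and *Defb42* each overlap another annotated gene, so part of their reads could belong to it.

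The comparisons with the other groups ask how far the WT profile holds when ERG is expressed or *Trp53* is deleted. At an adjusted p under 0.001 (limma on log2(FPKM + 1) with Benjamini-Hochberg adjustment over 17623 genes), 0 genes were lower and 2 higher than in WT (0.0113%) in Pb-ERG mice, 0 and 0 in Trp53pc-/- mice (also 0 by voom), and 0 and 36 (0.204%) in double mutant mice. At an adjusted p under 0.05 limma gave 31 lower (0.176%) and 353 higher (2.0%) in Pb-ERG mice, 0 and 0 in Trp53pc-/- mice, and 247 lower (1.4%) and 3880 higher (22.0%) in double mutant mice. The Pb-ERG counts at this threshold became 159 lower and 3118 higher without Pb-ERG replicate 1. They were 1 and 78 without replicate 2, and 1 and 65 without replicate 3. Leaving out a WT library gave 57 to 89 higher. Unadjusted p-values under 0.05 were found by limma for 400 lower and 3712 higher genes in Pb-ERG, 329 and 579 in Trp53pc-/-, and 589 and 6512 in double mutant mice. With no difference between groups, a share of 0.05 of the 17623 genes would pass this limit. These are therefore not counts of changed genes. Over the 17623 genes the median log2 fold change from WT was 0.22, 0.028 and 0.35 in the 3 groups, and scaling by median of ratios brought it to 0.0027, 0.00089 and 0.015. With that scaling limma gave 1076 lower and 1423 higher genes in double mutant mice at an adjusted p under 0.05, and 77 and 196 in Pb-ERG mice. All 3 comparisons share the WT libraries.

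The secretory list was spread widely in all groups. This and the other lists were chosen with earlier results of these data known. Their counts and medians beside those of all genes are therefore a description. In double mutant mice 4 of its 27 genes were lower and 3 higher at an adjusted p under 0.05 (limma), beside 1.4% and 22.0% of all genes, with a median log2 fold change of -2.16 beside 0.35 over all genes. In Pb-ERG mice 0 were lower and 3 higher, beside 0.176% and 2.0% of all genes (median -0.46, beside 0.22). In Trp53pc-/- mice none passed (median -0.28, beside 0.028). *Sbp* had 1.09, 1248 and 1.01 FPKM in the double mutant mice, a difference from WT of -10.59 on the log2 scale (SE 2.64, adjusted p = 0.020, limma). Every double mutant mouse was below every WT mouse for *Sbp*, yet in Trp53pc-/- mice it had 582, 23937 and 163452 FPKM, spanning the WT values on both sides. *Sbpl* had 0.293, 227 and 5.29 FPKM in double mutant mice (log2 fold change -7.96, SE 2.05, adjusted p = 0.023, limma). *Ren1* had 0.160, 6.04 and 0.109 FPKM (log2 fold change -5.65, SE 1.56, adjusted p = 0.029, limma), and *Pnliprp1* had 13.7, 36.3 and 2.31 FPKM (log2 fold change -4.83, SE 1.06, adjusted p = 0.013, limma). *Sbp*, *Sbpl* and *Ren1* no longer passed without WT 2, WT 3, double mutant library 1 or double mutant library 3 (adjusted p from 0.058 to 0.11, limma), while *Pnliprp1* passed whichever library was left out. Without the double mutant library 3, *Pnliprp1* was the single gene of the list still lower at an adjusted p under 0.05, 4 were higher, and the median was -0.35. Over all genes 0.647% were lower and 14.9% higher without that library.

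*Pbsn*, *Tgm4* and *9530053A07Rik* did not pass the test in any group. *Pbsn* had 6507, 6890 and 7441 FPKM in Pb-ERG mice, below the WT values of 9736.5 to 20035 FPKM, differing from WT by -1.10 on the log2 scale (SE 1.67, adjusted p = 0.72, limma). In double mutant mice *Pbsn* had 6487, 6138 and 53.3 FPKM. *Tgm4* had 9388, 6245 and 50.2 FPKM and *9530053A07Rik* had 4017, 2884 and 4.92 FPKM in double mutant mice, all below the WT range, with log2 fold changes of -3.91 (adjusted p = 0.14, limma) and -4.98 (adjusted p = 0.10, limma). The lowest value of each of these 3 genes was in the double mutant library 3, and without it the log2 fold changes of *Tgm4*, *9530053A07Rik* and *Pbsn* in double mutant mice were -1.51, -1.92 and -1.24 (adjusted p = 0.50, 0.27 and 0.49, limma). The 3 genes of the secretory list that rose in double mutant mice were *Clu*, *Wfdc2* (a whey acidic protein-type secreted protein) and *Lcn2* (a siderophore-binding lipocalin of mucosal defence). *Lcn2* had 14.7, 7.64 and 20.9 FPKM in WT mice, 467, 557 and 448 in Pb-ERG mice (log2 fold change 5.09, SE 0.48, adjusted p = 0.0020, limma) and 1387, 833 and 704 in double mutant mice (log2 fold change 6.02, SE 0.48, adjusted p = 0.00042, limma). *Clu* had 7983, 6339 and 1430.4 FPKM in double mutant mice (log2 fold change 4.88, adjusted p = 0.0054, limma), and *Wfdc2* had 298.5, 466 and 1645 FPKM (log2 fold change 6.37, adjusted p = 0.0040, limma). In Pb-ERG mice *Clu* and *Wfdc2* were higher by 3.77 and 5.48 on the log2 scale (adjusted p = 0.044 and 0.022, limma), and neither passed when any WT library or Pb-ERG replicate 2 or 3 was left out (adjusted p from 0.070 to 0.20, limma).

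**Figure D5:**
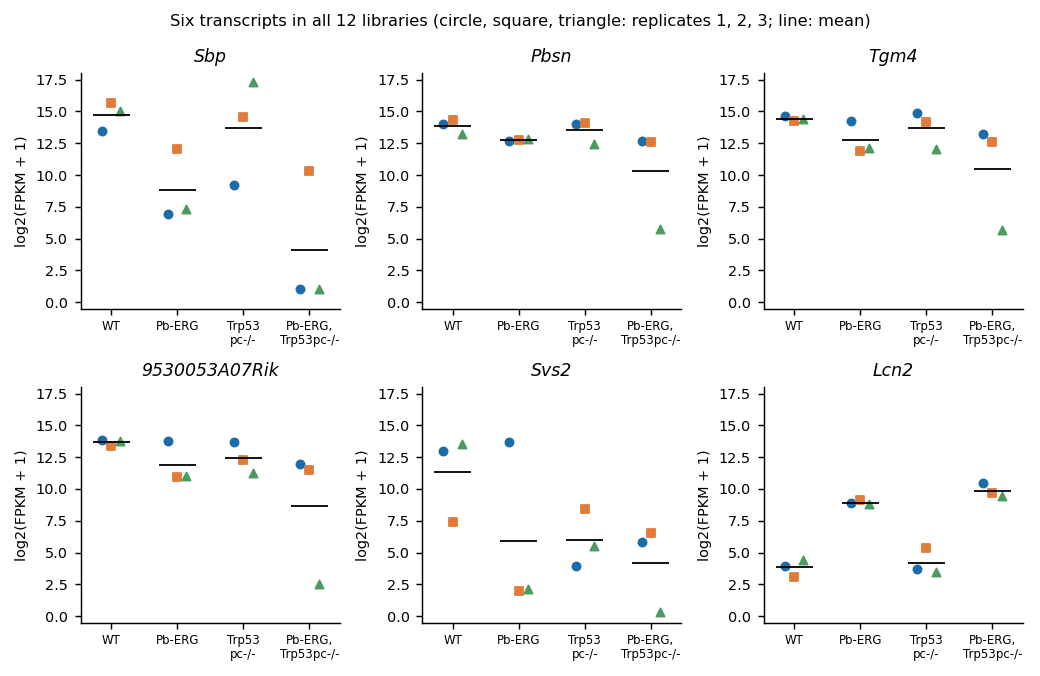
log2(FPKM + 1) of 6 transcripts in the 12 libraries by genotype, with a circle, square and triangle for replicates 1, 2 and 3 and a line at the group mean. The WT points of *Tgm4* (19100.2 to 25325 FPKM) and *9530053A07Rik* (10414 to 14623 FPKM) lie close together, those of *Svs2* do not, and *Lcn2* is higher in every Pb-ERG and double mutant library than in any WT library.

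Of the 9 luminal genes, 2 (*Krt8* and the tight junction gene *Cldn3*) were higher and none lower in double mutant mice at an adjusted p under 0.05, with or without library 3, beside 22.0% of all genes higher with it and 14.9% without it. *Krt8* had 81.5, 59.0 and 66.9 FPKM in WT and 232, 227.5 and 235 FPKM in double mutant mice (log2 fold change 1.74, SE 0.28, adjusted p = 0.0045, limma), while *Krt18* did not pass (log2 fold change 0.41, adjusted p = 0.21, limma). Of the 6 proximal luminal genes, 5 were higher in double mutant mice at an adjusted p under 0.05 (3 without library 3), and *Ly6a* had 1106, 1109 and 3855 FPKM there (log2 fold change 4.51, adjusted p = 0.0038, limma). *Ly6a* also rose in Pb-ERG mice, to 282, 1617 and 1161 FPKM (log2 fold change 3.46, adjusted p = 0.032, limma), and did not pass there when any WT library or Pb-ERG replicate 2 or 3 was left out (adjusted p from 0.10 to 0.15, limma). All 6 macrophage and all 6 proliferation genes were higher in double mutant mice, with or without library 3, at an adjusted p under 0.05. Macrophage markers summed to 66.1 to 151 FPKM in WT and 322 to 696 FPKM in double mutant mice, and the proliferation genes to 3.15 to 3.99 FPKM in WT and 18.7 to 109.6 FPKM in double mutant mice. Whether these marker levels bear on the levels of the secretory genes was not tested.

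Of the 32 endoplasmic reticulum genes, 9 were lower and 0 higher in double mutant mice at an adjusted p under 0.05 (median log2 fold change -0.45), beside 1.4% lower and 22.0% higher over all genes. Without library 3 there were 2 lower, beside 0.647% of all genes. *Derl3*, which helps remove misfolded proteins, had 103, 121 and 156 FPKM in WT and 31.4, 48.7 and 9.44 FPKM in double mutant mice (log2 fold change -2.30, SE 0.61, adjusted p = 0.026, limma). *Creld2*, a stress-induced chaperone, had 212, 378 and 544 FPKM in WT and 71.0, 92.3 and 63.7 FPKM in double mutant mice (log2 fold change -2.22, SE 0.60, adjusted p = 0.027, limma). Both genes also missed the threshold without WT 2 or WT 3, and without the double mutant library 3 (adjusted p from 0.065 to 0.099, limma), *Derl3* also without WT 1 and *Creld2* without double mutant library 1 (adjusted p of 0.058 and 0.064, limma). In Pb-ERG and Trp53pc-/- mice none of the 32 passed, with medians of -0.15 and -0.35. Of the 14 androgen response genes, *Tmprss2* was lower (log2 fold change -1.53, adjusted p = 0.026, limma) and *Steap4*, a metalloreductase, higher (log2 fold change 2.44, adjusted p = 0.022, limma) in double mutant mice, and neither passed when library 3 or any WT library was left out (adjusted p from 0.052 to 0.084, limma). Of the 12 polyamine genes, *Sms* was lower and *Oaz2*, *Smox* and *Arg1* higher in double mutant mice, beside 1.4% and 22.0% of all genes, where *Sms* did not pass when any WT library or double mutant library 2 or 3 was left out, nor *Oaz2* without WT 3 (adjusted p from 0.057 to 0.087, limma). Of the 16 zinc and citrate genes tested, 1 was lower and 3 higher there, and 0 and 2 without library 3, beside 1.4% and 22.0% of all genes with that library and 0.647% and 14.9% without it. *9530003J23Rik*, which was steady in WT mice, had 46.3, 135 and 0.0205 FPKM in double mutant mice (log2 fold change -7.09, SE 2.15, adjusted p = 0.038, limma), and it did not pass when any WT library or double mutant library 1 or 3 was left out (adjusted p from 0.063 to 0.11, limma).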

How the data were processed

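RNA-seq libraries of prostate from 12 mice were used, grouped by their titles, with 3 libraries each for WT and 3 other genotypes. The authors prepared TruSeq RNA libraries, sequenced paired ends, aligned the reads to GRCm38 with STAR (version 2.5.2b per the submitters' processing notes, another version in the methods) and deposited FPKM per gene made with RSeQC. Samples with the R172H allele were not analysed here. FPKM multiplied by exon length and the library total gave whole fragments for 100% of values (tolerance 1e-05), so shares and depth are known; totals were 20591189 to 26838874 fragments in WT. Counting error is that of these fragments, and PCR duplicates are not independent molecules. Gene positions matched GENCODE M21 for 99.9% of the genes compared, and 1048 symbols were updated through RefSeq synonyms.

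Genes passed the filter with at least 0.420 CPM of recovered fragments (10 in a library of median size) in at least 3 libraries. Groups were compared by limma 3.58.1 (trend, R 4.3.3) on log2(FPKM + 1) with 4 group means and Benjamini-Hochberg adjustment. Fold changes on this scale understate those of low genes. The threshold was an adjusted p under 0.001, with 0.05 as an alternative. The fit was also run on simulated data in which every gene was drawn with an SD of 0.151 on the log2 scale. That is far below the spread of genes such as *Sbp*, so the simulation does not show how the fit performs for them. The labels do not say more of replicates than their number, and the mice are different animals. Deviations from the group mean of WT and Trp53pc-/- libraries with the same replicate number correlated at 0.179, 0.218 and 0.24. The fit with the replicate number as a block was also made for every comparison.

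Named genes were the 25 with the highest mean FPKM in WT, the 10 with the largest mean share of fragments, the 20 with the highest SD of log2(FPKM + 1) among genes with a mean of at least 1 FPKM in WT, and every member of the lists of secretory products, markers and pathways. The members and lists were chosen with earlier results of these data known. Alternatives were a pseudocount of 0.1, median-of-ratios scaling, no filter, the groups compared alone, a replicate block, voom on the recovered fragments and leaving out each library. For the WT profile they were shares of summed FPKM, leaving out mitochondrial genes, and other limits for the range between mice. Counting list members without the double mutant library 3 was chosen after seeing the data.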

Additional observations from a re-analysis of the deposited data

How the results depend on the processing

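The number of genes called at an adjusted p under 0.001 by limma was small and depended on the setting. For Pb-ERG (2 genes) it was 7 with a pseudocount of 0.1, 1 with the replicate block, 1 with voom on recovered fragments, 384 at an adjusted p under 0.05 and 1 to 63 when a library was left out (63 without Pb-ERG replicate 1). For Trp53pc-/- (0 genes) it was 2 with no filter, and the block left it at 0. For double mutant mice (36 genes) it was 19 with median-of-ratios scaling, 5 with no filter, 0 with only the groups compared, 1 with the replicate block, 3 with voom, 4127 at an adjusted p under 0.05 and 0 to 18 when a library was left out. The correlations of same-numbered libraries were -0.002, 0.098 and -0.237 for Pb-ERG and 0.114, -0.132 and -0.019 for double mutant mice. No background was computed for these correlations, so whether same-numbered libraries share more than a number was not tested.

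As shares of summed FPKM, which do not weigh length, the 10 leading genes held 30.5%, the secretory list 26.7%, and 90 genes held 50%. Leaving out mitochondrial genes or a mouse moved the shares by less than the SD between mice. The number of genes with at least a 4-fold range was 76 with a mean FPKM of at least 10, 140 with a pseudocount of 1 and 163 to 206 when a mouse was left out, and fewer mice give fewer extremes by construction. Over 25 fold changes of single genes under 12 alternatives each, 220 values stayed on their side of an adjusted p of 0.05, 75 lost it, 5 gained it and none reversed, and the cause was not tested. *Lcn2* passed under every setting in Pb-ERG and double mutant mice. In Pb-ERG mice *Clu* passed under 4 of 13 settings, and *Wfdc2* and *Ly6a* under 6. In double mutant mice *Clu*, *Wfdc2* and *Ly6a* passed under all 13. Of the lowered secretory genes, *Sbp* and *Sbpl* passed under 8 of 13 settings, *Ren1* under 7 and *Pnliprp1* under 12. With 3 mice the SD between WT mice is itself imprecise.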
